A study of Nematostella vectensis with 17 samples.

Results

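In gastrulae of the sea anemone Nematostella vectensis, 31 gene models moved in opposite directions with the 2 morpholinos directed against brachyury. Of these, 20 were higher with the translation-blocking and lower with the splice-blocking morpholino, and 11 were the reverse. They were taken from a table of 25729 gene models, of which 20372 reached a mean of at least 1 CPM (the count of a gene scaled to a common library total) over all libraries. A gene was chosen if its mean differed from control by at least 1.2-fold each way, and if every translation library lay on one side of every control library and every splice library on the other. The genes were chosen by their levels in these libraries, so all differences from control below describe the choice and carry no p-value.

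Whole embryos at the gastrula stage were sampled for RNA in 3 groups. One group of 6 libraries came from embryos injected with the translation-blocking morpholino BraATGMO, and 4 libraries came from embryos injected with the splice-blocking morpholino BraSpliceMO. Both were injected at 500 µM in 3 to 5 pl, per the labels' protocols, and 4 further libraries came from embryos injected with a control morpholino, whose sequence and dose the labels do not give. The series also holds 3 ChIP-seq samples, which were not used for these genes. All groups share the injection and the stage, and no uninjected embryos were analysed here.

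Brachyury is a T-box transcription factor. In sea anemone gastrulae it is transcribed around the blastopore, the opening through which the inner layer moves in, and in many animals it acts downstream of Wnt signalling. A translation-blocking morpholino is an antisense oligomer that covers the start of the messenger RNA, so the transcript can remain while its protein is not made. A splice-blocking morpholino covers an exon and intron boundary of the precursor RNA and changes the spliced transcript. Both oligomers are directed at the same gene. No gene names come with the identifiers in the files, and of 25729 identifiers 0 were found in the RefSeq table (assembly jaNemVect1.1). Brachyury itself, the Wnt pathway genes and markers of cell types were therefore not analysed here, so neither the knockdown nor the labelled tissue was checked, and the roles of the 31 genes cannot be given.

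The morpholino sequences are shown because they are what the labels give as different between the 2 groups in which the 31 genes moved apart. Both are given from 5′ to 3′, and capitals mark the letters CAT, which pair with an ATG and occur once in each.
BraATGMO: tcgtccgagtgCATgtccgactatg
BraSpliceMO: tccctggttgtcaacCATaccgtcc
The stretches that they would pair with, written as the complement from 5′ to 3′ with that ATG in capitals, are as follows.
Complement of BraATGMO: catagtcggacATGcactcggacga
Complement of BraSpliceMO: ggacggtATGgttgacaaccaggga
Each oligomer is 25 nucleotides long and has a GC content of 56%. The longest run of letters that both share is 5 nucleotides. Counted from the 5′ end, CAT starts at position 12 of BraATGMO and at position 16 of BraSpliceMO. The pairing ATG starts at position 12 and at position 8 of the complements. Whether either ATG is the start codon of the transcript was not looked up, since no sequence of the gene was used here.

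Total counts ran from 15236154 to 80132810 in the control group, from 12289649 to 32175949 in the translation group and from 14873801 to 16096648 in the splice group. The highest totals were those of control library 1 and translation library 6. Each library was counted as 1 replicate, since the labels call them biological replicates. The labels' protocol states 6 replicates for each group, and for the control and splice groups the 4 listed were analysed here. The libraries hold whole embryos, so fewer cells of a type and less RNA per cell cannot be told apart. Translation library 4 stood apart from the other translation libraries in the genes described here, and values with and without it are given below.

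Movement in opposite directions was rare beside movement in the same direction under the same thresholds. The 31 genes were 0.152% of the 20372 genes, with 0.0982% in the group of 20 and 0.054% in the group of 11. With both morpholinos 536 genes were higher (2.63%) and 709 were lower (3.48%), together 6.11%. Of the 1424 genes that were higher with the translation morpholino (6.99%), 536 were also higher with the splice morpholino and 20 were lower, while 868 met the thresholds in neither direction. Of the 1933 genes that were lower with the translation morpholino (9.49%), 709 were also lower with the splice morpholino and 11 were higher. Higher with the splice morpholino were 1201 genes (5.9%), of which 11 are among the 31, and lower were 2152 genes (10.6%), of which 20 are. Both comparisons use the same 4 control libraries, so a deviation of the controls moves both in the same direction.

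**Figure D1:**
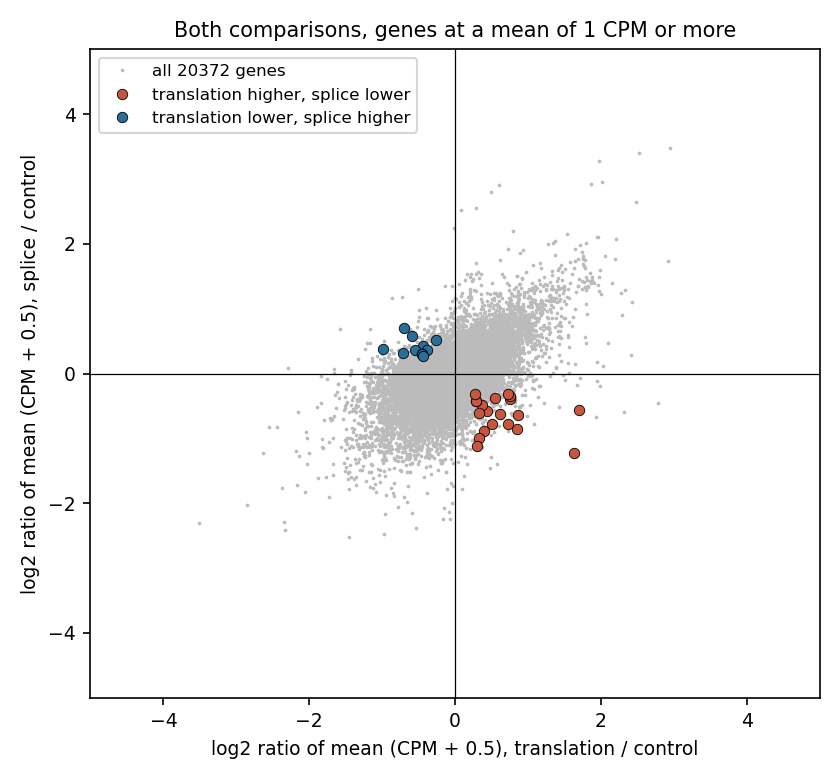
Log2 ratio of the mean of each morpholino group to the mean of the controls, with 0.5 CPM added to each mean, for the translation morpholino (x axis) and the splice morpholino (y axis). Each grey point is one of 20372 genes. The 20 genes higher with translation and lower with splice (red) lie at the lower right and the 11 reverse genes (blue) at the upper left, where the rule places them.

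The 20 genes that were higher with the translation morpholino were led by NVE17821. It stood at 3.97, 2.56, 2.12 and 2.25 CPM in control libraries 1 to 4. With the translation morpholino its level ranged from 5.38 to 16.5 CPM with a median of 8.05, and with the splice morpholino it was 1.3, 0.874, 0.889 and 0.448 CPM. The lowest translation library thus lay above the highest control, and the highest splice library below the lowest control. The means were 2.72 ± 0.85 CPM in controls (SD, n = 4) and 9.47 ± 3.97 (SD, n = 6) with the translation morpholino. With the splice morpholino the mean was 0.879 ± 0.35 CPM (SD, n = 4). NVE17821 was 3.48-fold higher with the one and 3.1-fold lower with the other, so that the 2 morpholino groups were 10.8-fold apart. Its splice values rest on 7 to 21 counts per library, while the other groups held 38 to 318 counts. Without translation library 4, its highest value, the rise was 2.96-fold, and without control library 1 it was 4.1-fold.

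NVE2415 came next among the genes with a mean of at least 5 CPM, ranked by the smaller of the 2 changes of each gene. It was at 15.4, 15.9, 20.3 and 14.9 CPM in control libraries 1 to 4. Translation libraries held 26.6 to 35.1 CPM with a median of 30.6, and splice libraries held 9.19, 10.4, 10.2 and 6.34 CPM. The 3 groups were separated by gaps in which no library fell. Its mean was 16.6 ± 2.48 CPM in controls (SD, n = 4) and 30.5 ± 2.96 (SD, n = 6) with the translation morpholino. With the splice morpholino it was 9.01 ± 1.85 CPM (SD, n = 4). The 1.83-fold rise and the 1.85-fold fall were of nearly equal size. With any 1 library left out, the rise was 1.77-fold to 1.98-fold and the fall 1.68-fold to 1.94-fold. Translation library 4 was the lowest of the 6 for NVE2415 and the highest of the 6 for NVE17821.

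In the other 18 genes of this direction the smaller of the 2 changes was below that of NVE2415, while single changes of some were larger. Over all 20, the rise with the translation morpholino ranged from 1.21-fold to 4.02-fold, and the median log2 ratio was 0.54. The fall with the splice morpholino ranged from 1.25-fold to 3.1-fold, and the median log2 ratio was -0.63. Over all 20372 genes the median log2 ratios were -0.05 and -0.08. In 6 of the 20 both changes reached 1.5-fold, and in 1, NVE17821, both reached 2-fold. In 7 of the 20 the change with the translation morpholino was the larger one, and in 13 that with the splice morpholino was.

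The genes of this direction also differed in where the control level fell between the 2 morpholino groups. On the log2 scale, with 0% at the translation mean and 100% at the splice mean, controls lay at 52.4% for NVE17821 and 49.7% for NVE2415. Over the 20 genes the place ranged from 21.0% to 70.9% with a median of 47.1%. At one end was the gene ranked 17 by the smaller of its changes, whose controls held 113 to 134 CPM. Its translation libraries held 142 to 176 CPM with a median of 155, and its splice libraries only 43.7 to 75.2 CPM. Its controls were thus close to the translation libraries and far from the splice libraries. At the other end was the gene ranked 3, with 1.36 to 1.62 CPM in controls, 3.14 to 12.1 CPM with the translation morpholino and a median of 4.48. Its splice libraries held 0.384 to 1.21 CPM, so there the controls were close to the splice libraries. These splice values rest on low counts, down to 6 in a library, so this place is loosely set.

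Separation between groups was narrow for many of these genes. In 15 of the 20, one of the gaps between a control library and the nearest morpholino library was under 1.1-fold. The smallest gap to a translation library was 1.01-fold and the smallest gap to a splice library was also 1.01-fold. The mean levels over 14 libraries ran from 3.13 to 151 CPM with a median of 30.7, against 14.5 CPM for all 20372 genes. Summed over the 20 genes, libraries held 888 to 952 CPM in controls, 1168 to 1491 CPM with the translation morpholino and 485 to 651 CPM with the splice morpholino. The summed levels of the 3 groups did not overlap, which the choice of the genes fixes.

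**Figure D2:**
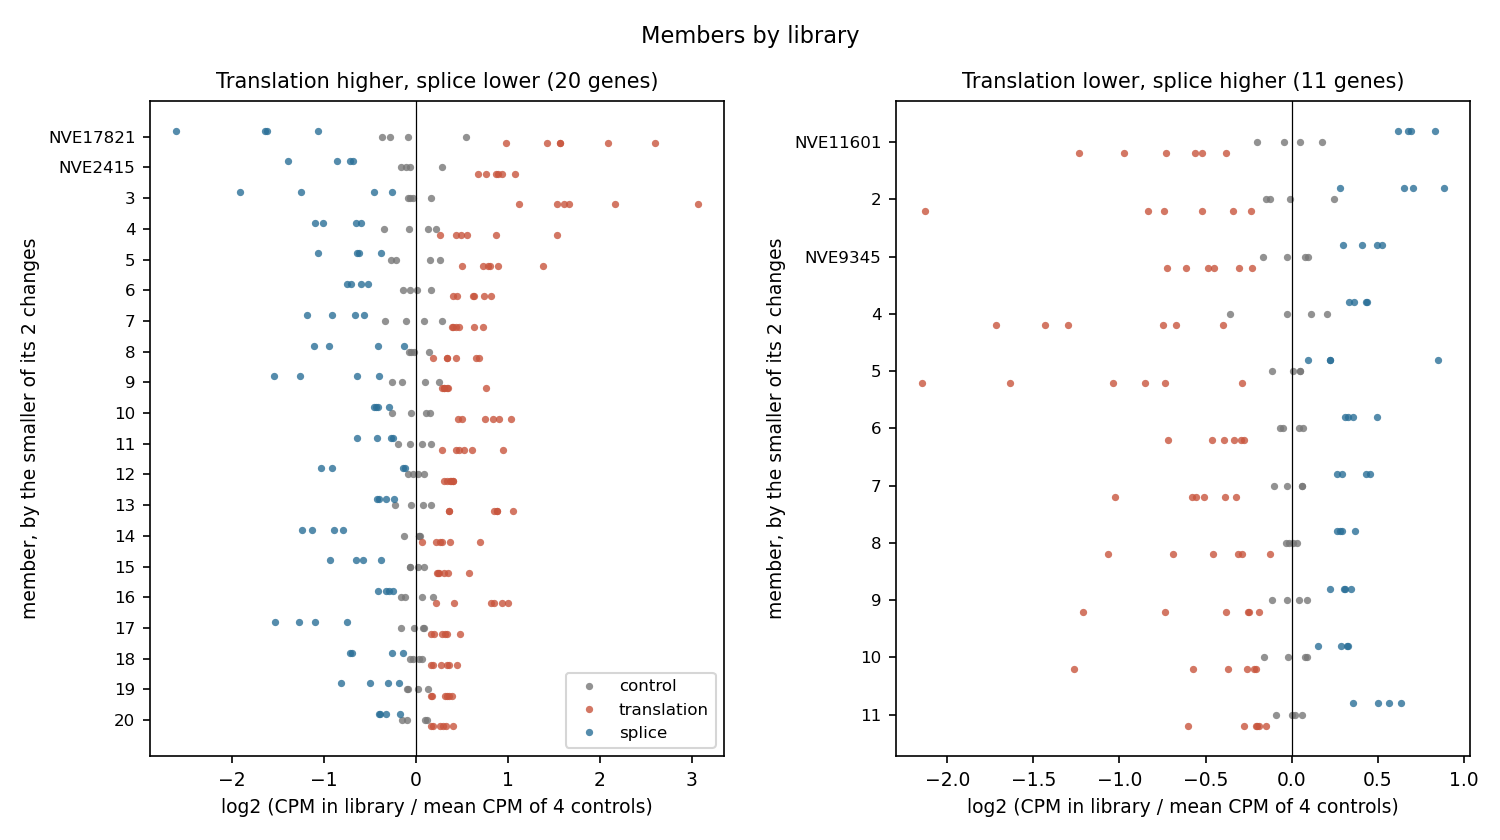
Each row is one gene, ordered from the top by the smaller of its changes, and each point is one library, drawn as the log2 ratio of its CPM to the mean of the 4 controls (x axis). Left, the 20 genes higher with translation (red) and lower with splice (blue); right, the 11 reverse genes; controls are grey. The smaller of the changes is largest for NVE17821 at the top left, and in the lower rows the groups nearly touch.

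The 11 genes that were lower with the translation and higher with the splice morpholino were led by NVE11601. It stood at 116, 127, 97.8 and 109 CPM in control libraries 1 to 4. In the translation libraries it ranged from 47.9 to 86.4 CPM with a median of 72.1, and the splice libraries held 180, 173, 201 and 182 CPM. The splice libraries were close together, while the translation libraries were spread and their highest came near the lowest control. Means were 113 ± 12.4 CPM in controls (SD, n = 4) and 69.1 ± 14.3 (SD, n = 6) with the translation morpholino. With the splice morpholino the mean was 184 ± 12 CPM (SD, n = 4). The level was 1.63-fold lower with the one and 1.63-fold higher with the other, a 2.66-fold distance between the morpholinos. Controls lay at 50.0% of that distance on the log2 scale. With any 1 library left out, the fall was 1.54-fold to 1.72-fold and the rise 1.56-fold to 1.71-fold.

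NVE9345 followed among the genes with a mean of at least 5 CPM. It was at 15.1, 13.7, 16.5 and 16.3 CPM in control libraries 1 to 4. The translation libraries held 9.32 to 13.1 CPM with a median of 11.1, and the splice libraries 20.4, 19.0, 22.2 and 21.7 CPM. The highest translation library and the lowest control were only 1.05-fold apart. Its means were 15.4 ± 1.26 CPM in controls (SD, n = 4) and 11.2 ± 1.42 (SD, n = 6) with the translation morpholino, a 1.37-fold fall. With the splice morpholino the mean was 20.8 ± 1.44 CPM (SD, n = 4), a 1.35-fold rise. NVE9345 did not meet the rule when libraries were scaled by TMM (trimmed mean of M-values) or by DESeq2 size factors.

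**Figure D3:**
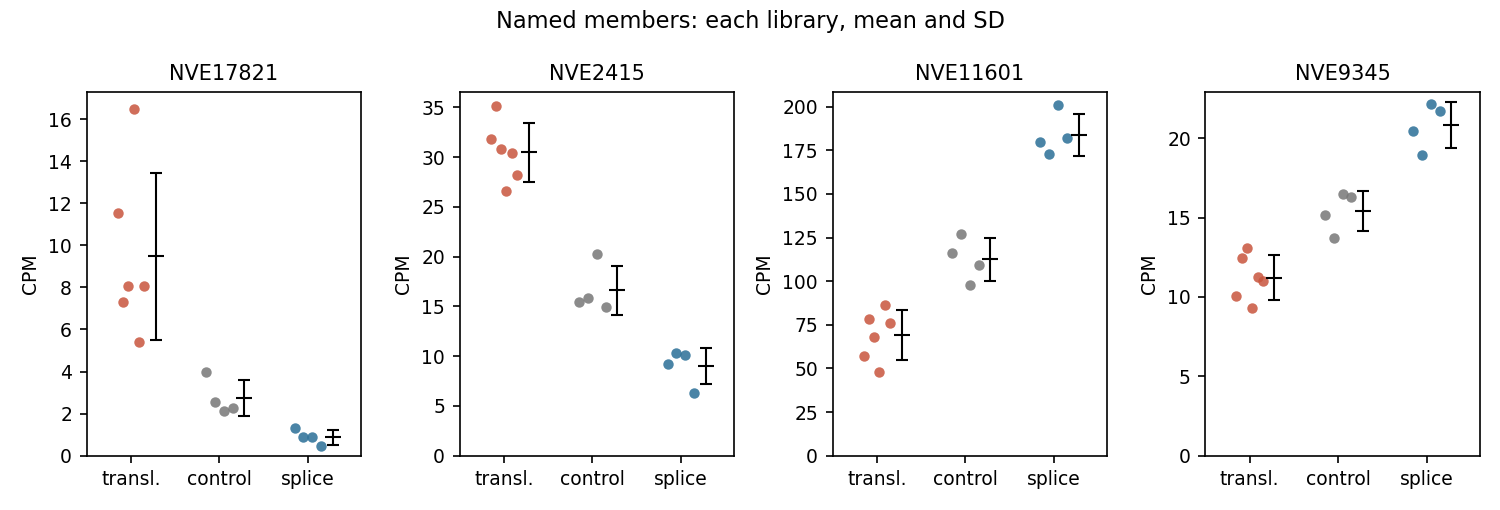
Level in CPM (y axis) of the 4 named genes in each translation, control and splice library (points), with the mean and SD of each group (black). The groups do not overlap in any of the 4 genes, with translation above control above splice for NVE17821 and NVE2415 and the reverse for NVE11601 and NVE9345.

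The other 9 genes of this direction included the most abundant of all 31. The gene ranked 7 held 796 to 892 CPM in controls, 419 to 684 CPM with the translation morpholino with a median of 591, and 1027 to 1173 CPM with the splice morpholino. The gene ranked 8 held 677 to 707 CPM in controls, so its 4 control libraries were nearly level. It was at 330 to 633 CPM with the translation morpholino, with a median of 531, and at 831 to 892 CPM with the splice morpholino. Mean levels over the 11 genes ran from 1.7 to 809 CPM with a median of 47.3, and 5 of the 11 exceeded 100 CPM, as did 10.0% of all 20372 genes. In the group of 20 this held for 3 genes.

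Changes in this direction were smaller than 2-fold throughout the 11 genes. The fall with the translation morpholino ranged from 1.2-fold to 1.996-fold, with a median log2 ratio of -0.46, and the rise with the splice morpholino from 1.21-fold to 1.63-fold, with a median log2 ratio of 0.38. In 9 of the 11 the change with the translation morpholino was the larger one. In 2 of the 11 both changes reached 1.5-fold. Controls lay at 33.6% to 72.5% of the log2 distance from translation to splice, with a median of 60%. In 8 of the 11 one gap to the nearest control was under 1.1-fold. The summed level of the 11 genes was 2470 to 2556 CPM in controls, 1159 to 2142 CPM with the translation morpholino and 3061 to 3281 CPM with the splice morpholino. Most of this sum comes from a few abundant genes, among them those ranked 7 and 8, with means of 809 and 657 CPM over all libraries.

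Within the translation group, library 4 lay farthest from control for most of these genes. It was the lowest of the 6 translation libraries in 10 of the 11 genes that were lower with that morpholino. Among all 1933 genes lower with the translation morpholino by the same thresholds it was the lowest in 60.7%, and among all 20372 genes in 28%. In the 20 genes that were higher with that morpholino it was the highest in 12, against 40.9% of the 1424 genes higher by the same thresholds and 21.1% of all genes. A low or high library also helps a gene to pass the minimum fold, so these counts are not free of the rule, and no test was made. The median log2 ratio of the 11 genes to control was -1.21 in library 4 and -0.28 to -0.61 in the other 5 translation libraries. For the 20 genes it was 0.74 in library 4 and 0.37 to 0.61 in the others. Without library 4 the median log2 ratio of the translation group went from -0.46 to -0.41 in the 11 genes and from 0.54 to 0.47 in the 20, and 1 and 3 of them came to differ from control by less than 1.2-fold.

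The splice libraries were less spread in the 11 genes than in the 20. The median log2 ratio of the 11 genes to control was 0.46, 0.33, 0.35 and 0.31 in splice libraries 1 to 4. For the 20 genes it was -0.67, -0.44, -0.43 and -0.81, so libraries 1 and 4 were lower than libraries 2 and 3. Over all 20372 genes, with 0.5 CPM added, the medians were -0.09, -0.06, -0.03 and -0.19. Libraries 1 and 4 were thus the lower ones there too, by less. Splice library 4 was the lowest of the 4 in 10 of the 20 genes. It was so in 35.4% of the 2152 genes lower with the splice morpholino by the same thresholds and in 37.5% of all 20372 genes. Splice libraries 1 to 4 have the title numbers that directly follow those of translation libraries 1 to 4. In the 20 genes these translation libraries had median log2 ratios of 0.61, 0.42, 0.44 and 0.74, so libraries 1 and 4 lay farther from control than libraries 2 and 3 in both groups. On the same ratios this did not hold in the 11 genes. There the translation libraries had -0.61, -0.46, -0.34 and -1.21, so translation library 4 lay farthest from control and splice library 4 nearest. These ratios are not set against the medians over all genes, of which that of splice library 4 was the lowest at -0.19. Relative to those medians, splice library 4 would not be the nearest in the 11 genes, so the difference between the directions depends on the scaling. The labels do not say what the title numbers mark, and a part of shared handling in these values was not tested. Control libraries had median log2 ratios of -0.06 to 0.05 in both directions. Each ratio is to the mean of these same controls, which centres their values, so this does not measure how steady the controls were.

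**Figure D4:**
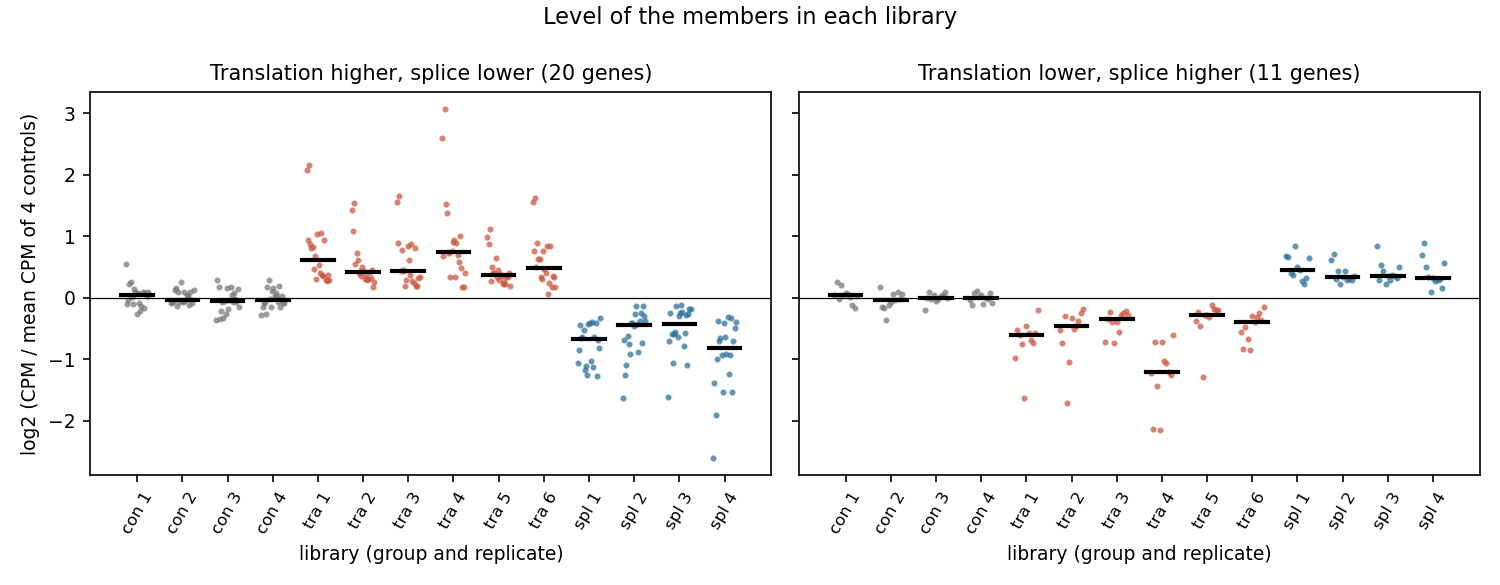
Log2 ratio of the CPM in each library to the mean of the 4 controls (y axis) for every gene (points) with the median over the genes (black bar), by library (x axis; con, control; tra, translation; spl, splice). In translation library 4 the median of the 11 genes (right) is -1.21, below the -0.28 to -0.61 of the other translation libraries.

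The sizes of the changes were also compared between libraries with lower and higher numbers in their titles, split at a number set here and not by the labels. Up to number 52970 there are 2 control, 3 translation and 3 splice libraries, and above it 2, 3 and 1. For the 20 genes the median log2 ratio with the translation morpholino was 0.45 in the first part and 0.59 in the second, and with the splice morpholino -0.55 and -0.78. For the 11 genes these were -0.46 and -0.56 with the translation morpholino, and 0.46 and 0.31 with the splice morpholino. The rule fixes the order of the groups in both parts, so the shared direction is not evidence of its own. Translation library 4 and splice library 4 both belong to the second part.

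A quasi-likelihood test fitted to the counts of all genes with edgeR places the 31 genes among the other calls. Of the 22109 genes tested, 9.96% were called higher and 10.1% lower with the translation morpholino at an adjusted p under 0.05, and 5.75% and 5.29% with the splice morpholino. In the group of 20, 19 were called with the translation morpholino, 8 with the splice morpholino and 7 with both. In the group of 11, 7 were called with the translation morpholino, 5 with the splice morpholino and 4 with both. Between the morpholinos 6.49% of the genes were called higher and 6.29% lower with splice, and all 11 and all 20 were among them. Because these contrasts chose the genes, nothing is read from these counts. The fit called 23 genes in opposite directions (0.104%), 16 of them higher with the translation morpholino (0.0724%) and 7 lower (0.0317%). The first list shared 7 genes with the group of 20, which is 43.8% of the list and 35% of the group. The second shared 4 with the group of 11, or 57.1% of the list and 36.4% of the group. All of the 12 called genes that are not among the 31 had overlapping libraries in one of the comparisons.

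The count of 11 genes called with both fell when some single libraries were left out. Without control library 1 it was 4, without control library 2 or control library 4 it was 6, and without translation library 1 it was 7. Opposite calls over all genes tested fell as well, from 23 to 6 without control library 1 and 8 without control library 2. They were 12 without control library 4 and 14 without translation library 1. In the fit, the log2 fold changes of NVE17821 were 1.83 ± 0.31 (SE) for translation minus control and -1.58 ± 0.38 for splice minus control. Those of NVE2415 were 0.92 ± 0.14 and -0.82 ± 0.15, those of NVE11601 -0.65 ± 0.13 and 0.79 ± 0.15, and those of NVE9345 -0.42 ± 0.12 and 0.52 ± 0.13. In the authors' deposited table for the translation comparison, all 20 genes and 8 of the 11 had an adjusted p under 0.05, where 11.2% of the genes with a value were higher and 10.1% lower. The authors' deposited table gave log2 fold changes of 1.85 for NVE17821, 0.93 for NVE2415, -0.64 for NVE11601 and -0.4 for NVE9345.

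How libraries were scaled decided much of the membership. Scaled by TMM, the rule chose 20 genes higher and 21 lower with the translation morpholino, and 12 and 6 of these were among the 31. By DESeq2 size factors it chose 21 and 22, with 13 and 6 shared. The share higher with translation was 64.5% with column sums, 48.8% with TMM and 48.8% with DESeq2 size factors. Both scalings kept 18 of the 31, with NVE17821, NVE2415 and NVE11601 among them. Single libraries decided it as well: the rule chose 47 genes without control library 4, 70 without splice library 2 and 50 without splice library 3. It chose 35 without splice library 1, 40 without splice library 4 and 30 without translation library 4. A shorter list of libraries has fewer chances to overlap, but why the counts differed between left-out libraries was not tested. In the group of 20 the count was 41 without splice library 2, 37 without splice library 3 and 32 without control library 3. In the group of 11 it was 29 without splice library 2, 20 without control library 4 and 18 without splice library 4.

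Some genes missed the rule by a single condition. For the group of 20, 5 genes missed only the fold with the translation morpholino and 5 only that with the splice morpholino, with the nearest outside at 1.15-fold and 1.1999-fold and the nearest inside at 1.21-fold and 1.25-fold. For the group of 11, 1 and 7 genes did so, with 1.16-fold and 1.16-fold outside against 1.2-fold and 1.21-fold inside. Overlap with controls kept out more. It was the only condition missed by 50 genes for translation libraries and 45 for splice libraries in the first direction, and by 33 and 25 in the second. No gene was kept out by the minimum of 1 CPM alone (0 in either direction).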

How the data were processed

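RNA-seq libraries of whole gastrulae were grouped by the morpholino in the labels. The authors deposited raw counts per gene model and library, beside 92 spike-in rows (total 0, not used). Tools in the submitters' processing notes, with no role stated, are BWA, STAR 2.5.3a, Subread 1.6.2 with featureCounts, cutadapt 1.8.1 and DESeq2 1.6.0. The annotation and strand setting are not stated, and reads of overlapping, antisense or near-identical genes may be mixed. The log2 fold change and adjusted p-value columns deposited by the authors match translation over control, and were only quoted. Columns of per-sample values without a sample numbered 0.

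CPM is the count over the column sum of gene rows. Ratios are of group means, without a pseudocount. Two-sided quasi-likelihood tests (edgeR 4.0.16, R 4.3.3; filterByExpr, TMM, 3 group means, 11 residual degrees of freedom, Benjamini-Hochberg over 22109 genes, 0.05) ran on all 14 libraries and were tested on simulated data. Standard errors were computed as |log2 fold change| over the root of F. Alternatives used DESeq2 1.42.0, other scalings, filters and left-out libraries. Tables were handled in Python 3.11.15 with pandas 2.3.3. All 27 pairs of libraries within groups differed beyond sampling noise (chi-square per degree of freedom 7.79 to 50.7).

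The members were chosen with earlier results of these data known. Named genes are the first 2 per direction by the smaller absolute log2 ratio at a mean of at least 5 CPM. Peak lists were not used, since gene positions on their build were not at hand.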

Additional observations from a re-analysis of the deposited data

Results flagged for a closer look

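In 3 of 27 sets of values one library lay far from the others of its group. Chance alone gives about 1 set in 20, or 1.35, for sets not chosen from the data. Some sets here come from genes chosen by their levels in these libraries, so no conclusion is drawn from this comparison. In log10 total count, control library 1 was far above its group, with a gap of 0.863 of the group's range to the next library. Translation library 6 did so among the translation libraries, with 0.639. Translation library 4 stood apart in the median level of the genes lower with the translation morpholino, with 0.640. No set of values of NVE17821, NVE2415, NVE11601 or NVE9345 was among the 3.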

How the results depend on the processing

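At a minimum of 1.1-fold the number of genes chosen was 54 (34 higher and 20 lower with translation), and at 1.5-fold 8 (6 and 2). TMM gave 21 and DESeq2 size factors 22 genes lower with translation, in place of 11. A minimum mean of 5 CPM left 28 genes, no minimum left 31, and group medians in place of means gave 29. With 1 library left out, the count was 30 to 70 in all, 20 to 41 higher and 10 to 29 lower with translation, and at least 27 of the 31 were still chosen. Of the 31, 11 were called in opposite directions by edgeR (23 over all genes), and 4 to 13 with 1 library left out (6 to 34 over all genes). DESeq2 called 16 (39 over all genes), library size as the only scaling 9 (20 over all genes), and RLE or no low-count filter 11 (23 and 20 over all genes). The counts over all genes thus differed between settings too. Libraries numbered up to 52970 gave 5 such calls and the later ones 0 by edgeR, with 8 of the 31 at an unadjusted p under 0.05 in both comparisons; their lone splice library (1) is taken to have the spread of the other groups, and DESeq2 was not run on them. Over all genes, the libraries numbered up to 52970 gave 9 opposite calls, against 23 with all libraries. With 1 splice library, the count of the later part is not read as a property of the 31 genes. The cause of the lower counts was not tested. The log2 fold changes of the 4 named genes kept their direction in all 160 alternative values, and 145 kept their side of the threshold. The rule placed every morpholino library on its side of every control, so leaving out libraries could hardly reverse a direction. Of the 15 that lost the call, 9 came from the parts of the numbering and 6 from a left-out library, 5 of these for NVE9345. Translation library 4 was the highest in 12 and the lowest in 10 genes under TMM and DESeq2 size factors too, alternatives added after seeing the data. No paired analysis was run, because the labels give no replicate numbers and do not say that library numbers mark sets. The fits therefore leave out any grouping that the numbers may mark. Low counts limit NVE17821, and the gene ranked 3 in its direction, in the splice libraries.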

Other observations

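Some of the 31 genes carry identifiers close to each other. Of the 30 neighbouring pairs in the sorted list of identifiers, 2 were consecutive, both pairs of genes that moved in the same direction, and 5 lay within 10 identifiers. A run whose first and last identifiers are 11 apart held 5 of the 31 genes, NVE17821 and 2 others that were higher and 2 that were lower with the translation morpholino. The table holds 11 gene models over that span, of which 9 reached a mean of 1 CPM. The 4 of these that were not chosen had splice over translation ratios of 0.695 to 1.53. What the order of the identifiers reflects, and whether reads were shared between neighbouring models, is not known from the files. Across 16546 pairs of genes with consecutive identifiers, which are not independent replicates, Pearson's r of the log2 splice over translation ratio was 0.13. It was 0.04 for 16185 pairs that are 2 apart, 0.01 for 15847 pairs that are 10 apart and 0.01 for 15768 pairs that are 100 apart. The run was noticed in the data, and its meaning was not tested.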
